A study of Mus musculus with 8 samples.

Results

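Il6, Saa3, Lcn2, Steap4, Ptgs2, S100a8, S100a9 and Nfkbia are genes of the acute phase response and of inflammation driven by the transcription factor NF-kB. They were followed across 4 lines of mouse embryonic stem cells. They were 8 of 18193 genes that could be named on the array. The list held 10 gene symbols and its members were chosen by their measured levels in these 4 groups, as earlier results of these data showed them, together with their place in the pathway. A gene was represented where a probe set carried its symbol and no other, and C3 and Il1rl1 were not analysed here. The 8 genes had 14 probe sets. Because the list was chosen with values of these groups known, the differences between lines are given for these 8 genes as descriptions with their standard errors (SE) and without p-values.

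NF-kB is held in the cytoplasm by inhibitors of the IkB family and enters the nucleus when the inhibitors are degraded after signals from IL-1, TNF or Toll-like receptors. It then induces cytokines such as IL-6, and also the gene of its own inhibitor, Nfkbia. IL-6 acts through the shared receptor subunit gp130 and STAT3 on genes of the acute phase response, many of them together with factors of the C/EBP family. In mouse embryonic stem cell cultures, gp130 and STAT3 also carry the signal of leukaemia inhibitory factor (LIF), which keeps the cells undifferentiated, while the fibroblasts used as feeder cells can respond to inflammatory signals.

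The 8 arrays fell into 4 groups of 2. The trap line was a gene-trap derivative of AB2.2 stem cells with a genotype label of HPRT -/- and GTF2I +/-. The exon 2 mutant came from R1 stem cells by gene targeting and had the genotype Δexon2/+ at Gtf2i, the gene of the transcription factor TFII-I. The Hprt knockout was labelled HPRT -/-, without a Gtf2i mutation by label, HPRT being an enzyme of purine salvage. The wild-type cells carried no mutation by label, and the labels did not give their line. Each group stands for a single named line or culture type, and the clone number was not given. Cells of every group were grown with LIF and serum replacement on a layer of feeder cells, so each RNA sample can hold RNA of feeders as well as of stem cells. Line and mutation cannot be told apart in any of these comparisons. The arrays of a group are labelled as biological replicates, but separate cultures are not stated, so p-values measure the spread between these arrays, which may be technical.

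Levels are log2 normalized intensities. Array medians lay between 5.96 and 6.02, and replicate arrays correlated at 0.997 to 0.998 across the 13812 tested genes. The number of arrays, 2 a group, limits the precision. A level is called low here where it lay under the 40th percentile of all probe sets of its array, on average 5.36. Hprt, the targeted gene in the lines labelled HPRT -/-, had 10.76 and 10.72 in the trap line, 12.25 and 12.25 in the exon 2 mutant, 10.05 and 10.02 in the Hprt knockout and 12.09 and 12.08 in wild-type. Gtf2i had 10.11 and 10.07 in the trap line, 10.45 and 10.51 in the exon 2 mutant, 10.92 and 10.89 in the Hprt knockout and 10.10 and 10.14 in wild-type. The position of these probes relative to the mutations was not analysed here, so these levels do not check the labels. All 14 stem cell markers were above the low level in every group, with a list mean of 11.85 to 11.87 on the trap arrays, 11.77 to 11.82 on the exon 2 mutant arrays, 11.90 to 11.93 on the Hprt knockout arrays and 11.43 on both wild-type arrays. The Hprt knockout stood apart in its feeder markers. The mean of 25 fibroblast markers was 11.64 to 11.65 in the trap line, 11.46 to 11.49 in the exon 2 mutant, 7.59 to 7.61 in the Hprt knockout and 12.04 to 12.06 in wild-type, and of the 25 markers Lum and Fap were low in the Hprt knockout.

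The promoters of 4 of these genes are printed, the 3 with an NF-kB match and Saa3, which had none. All 4 genes were lowest in the Hprt knockout, as was every other gene of the list here except S100a9. Saa3 and Steap4 shared the order trap, wild-type, exon 2 mutant and Hprt knockout. Il6 and the brightest probe set of Nfkbia had wild-type first, then exon 2 mutant and trap, which overlapped for Nfkbia. RefSeq gave promoters, from 250 bases before to 50 bases after the start of transcription, for all 8 genes (build GRCm38.p6). Capitals mark matches to GGGANNNNCC on either strand, a loose form of the NF-kB site. Il6 lies at chr5:30012864-30013163 on the plus strand, Saa3 at chr7:46715627-46715926 on the minus strand, Steap4 at chr5:7960222-7960521 on the plus strand and Nfkbia at chr12:55492598-55492897 on the minus strand.
Il6: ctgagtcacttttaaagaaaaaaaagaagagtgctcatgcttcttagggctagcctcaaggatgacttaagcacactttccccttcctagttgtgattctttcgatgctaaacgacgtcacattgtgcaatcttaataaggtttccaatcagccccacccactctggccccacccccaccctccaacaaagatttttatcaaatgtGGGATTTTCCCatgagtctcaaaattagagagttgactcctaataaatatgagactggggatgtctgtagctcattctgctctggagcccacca
Saa3: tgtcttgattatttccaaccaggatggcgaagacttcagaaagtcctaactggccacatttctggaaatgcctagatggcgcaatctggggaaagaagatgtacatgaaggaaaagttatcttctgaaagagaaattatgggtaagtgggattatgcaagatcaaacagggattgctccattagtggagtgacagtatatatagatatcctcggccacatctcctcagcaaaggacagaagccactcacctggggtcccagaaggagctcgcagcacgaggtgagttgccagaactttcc
Steap4: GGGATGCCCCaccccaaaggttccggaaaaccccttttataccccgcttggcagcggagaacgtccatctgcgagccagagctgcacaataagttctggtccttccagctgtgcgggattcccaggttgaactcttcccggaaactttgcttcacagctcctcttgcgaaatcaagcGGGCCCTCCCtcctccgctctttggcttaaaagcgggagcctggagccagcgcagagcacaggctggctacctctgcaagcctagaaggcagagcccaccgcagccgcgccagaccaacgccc
Nfkbia: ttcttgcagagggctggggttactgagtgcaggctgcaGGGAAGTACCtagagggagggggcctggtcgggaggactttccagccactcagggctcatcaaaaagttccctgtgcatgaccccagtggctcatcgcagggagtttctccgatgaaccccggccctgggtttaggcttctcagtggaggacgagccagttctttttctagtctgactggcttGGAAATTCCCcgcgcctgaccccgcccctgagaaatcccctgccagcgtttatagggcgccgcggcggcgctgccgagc

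The loose NF-kB site was found in the promoters of 3 of the 8 genes, against 20.7% of all 32851 RefSeq mouse promoters of the same length. In Il6 a match on the plus strand began at base -44, and a match on the minus strand began at -43 and overlapped it. In Nfkbia matches began at -212 on the plus and -29 on the minus strand, and in Steap4 at -250 and -73. Saa3, Lcn2, Ptgs2, S100a8 and S100a9 had no match in these windows, as the sequence of Saa3 shows. A loose C/EBP site, TTNNGNAA on either strand, was present in 7 of the 8, all but Nfkbia, against 40.7% of all promoters. The STAT site TTCNNNGAA was present in Steap4 alone, at -116, against 8.3% of all promoters. These matches describe letters in the window and were not tied to binding.

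Il6, the cytokine, was highest in wild-type and low in the Hprt knockout. It had 8.86 and 8.87 in the trap line, 9.63 and 9.54 in the exon 2 mutant, 3.60 and 3.22 in the Hprt knockout and 11.52 and 11.56 in wild-type. No 2 groups overlapped, and the trap line lay below the exon 2 mutant. The difference was 5.45 ± 0.11 (SE) for trap minus Hprt knockout and -1.95 ± 0.11 for exon 2 mutant minus wild-type. It was -8.12 ± 0.11 for Hprt knockout minus wild-type and -2.67 ± 0.11 for trap minus wild-type, a 6.36-fold lower signal in the trap line on the linear scale.

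Saa3, an acute phase serum amyloid gene that mouse cells outside the liver also express, was bright in every line but the Hprt knockout. It had 13.93 and 13.92 in the trap line, 12.54 and 12.62 in the exon 2 mutant, 6.08 and 6.49 in the Hprt knockout and 13.81 and 13.81 in wild-type. The trap and wild-type arrays did not overlap but lay within 0.11 ± 0.12 of each other, while exon 2 mutant minus wild-type was -1.23 ± 0.12. Trap minus Hprt knockout was 7.64 ± 0.12 and Hprt knockout minus wild-type was -7.52 ± 0.12. These are 199-fold higher in the trap line and 184-fold lower in the Hprt knockout on the linear scale. The Hprt knockout arrays of Saa3 lay near the array medians of 5.96 to 6.02, and whether they were above background was not tested.

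Lcn2, which encodes the siderophore-binding protein lipocalin 2, had 10.65 and 10.73 in the trap line, 8.47 and 8.30 in the exon 2 mutant, 4.38 and 4.78 in the Hprt knockout and 10.91 and 10.91 in wild-type. The order was wild-type, trap, exon 2 mutant and Hprt knockout, without overlap. Trap minus Hprt knockout was 6.11 ± 0.13, exon 2 mutant minus wild-type was -2.52 ± 0.13 and Hprt knockout minus wild-type was -6.33 ± 0.13. Trap minus wild-type was -0.22 ± 0.13, which was not called in the fit across all genes.

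Steap4, a metalloreductase of the plasma membrane and endosomes, was highest in the trap line. On its brighter probe set it had 11.21 and 11.17 in the trap line, 9.46 and 9.42 in the exon 2 mutant, 3.97 and 4.32 in the Hprt knockout and 10.06 and 10.10 in wild-type. The differences were 7.04 ± 0.11 for trap minus Hprt knockout, -0.64 ± 0.11 for exon 2 mutant minus wild-type, -5.93 ± 0.11 for Hprt knockout minus wild-type and 1.11 ± 0.11 for trap minus wild-type. Its dimmer probe set kept the order of the groups, with 8.41 and 8.61 in the trap line, 6.61 and 6.45 in the exon 2 mutant, 5.27 and 5.64 in the Hprt knockout and 7.04 and 6.98 in wild-type. Its difference between trap and Hprt knockout was smaller, at 3.06 ± 0.13, and so was that between Hprt knockout and wild-type, at -1.56 ± 0.13.

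Ptgs2, the inducible cyclooxygenase that starts prostaglandin synthesis, was highest in wild-type. It had 10.26 and 10.39 in the trap line, 9.93 and 9.53 in the exon 2 mutant, 5.24 and 5.31 in the Hprt knockout and 12.28 and 12.43 in wild-type. Exon 2 mutant minus wild-type was -2.62 ± 0.13 and trap minus wild-type was -2.03 ± 0.13. Trap minus Hprt knockout was 5.05 ± 0.13 and Hprt knockout minus wild-type was -7.08 ± 0.13. The groups did not overlap, and the dimmer probe set gave the same order, with -2.37 ± 0.11 for the exon 2 mutant and -1.91 ± 0.11 for the trap line, each minus wild-type. Its differences that involve the Hprt knockout were smaller than on the brighter probe set, at 3.11 ± 0.11 for trap minus Hprt knockout and -5.02 ± 0.11 for Hprt knockout minus wild-type.

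S100a8 and S100a9 encode the subunits of calprotectin, a protein abundant in neutrophils. S100a8 had 8.20 and 8.13 in the trap line, 4.70 and 4.89 in the exon 2 mutant, 3.76 and 3.73 in the Hprt knockout and 5.42 and 5.58 in wild-type. The trap arrays stood above all others, the wild-type arrays lay near the low level, and the exon 2 mutant and Hprt knockout arrays were low. Trap minus wild-type was 2.67 ± 0.08 and trap minus Hprt knockout was 4.42 ± 0.08. S100a9 was low on all 8 arrays, with 4.08 and 4.13 in the trap line, 4.10 and 4.24 in the exon 2 mutant, 3.70 and 4.26 in the Hprt knockout and 4.06 and 3.89 in wild-type. The 4 groups could not be ordered for S100a9, whose neighbouring groups overlapped, and it did not pass the filter on low values. The probe set of S100a8 carries the suffix of those that can match transcripts of several genes. Of 7 neutrophil markers on the array, Elane, Mpo, Ngp, Cxcr2 and Csf3r were low in all 4 groups, and Ltf was low in the trap line and the Hprt knockout. Camp, an antimicrobial peptide gene, was above the low level on at least 1 array of every group, with 6.30 and 6.31 in the trap line, 5.38 and 5.77 in the exon 2 mutant, 4.99 and 5.64 in the Hprt knockout and 6.52 and 6.11 in wild-type. It was called in the directions of S100a8 in 3 comparisons, at 0.99 ± 0.24 for trap minus Hprt knockout and -0.74 ± 0.24 for exon 2 mutant minus wild-type, and with means of 5.32 in the Hprt knockout against 6.31 in wild-type. It was not called in trap minus wild-type, at -0.01 ± 0.24. Its part in the S100a8 result was not tested. The list mean was 4.84 on both trap arrays, 4.60 to 4.94 in the exon 2 mutant, 4.66 to 4.93 in the Hprt knockout and 4.88 to 5.10 in wild-type.

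Nfkbia, which encodes the NF-kB inhibitor IkB-alpha, had the smallest differences of the genes above the low level. Its brightest probe set had 12.40 and 12.35 in the trap line, 12.33 and 12.45 in the exon 2 mutant, 11.37 and 11.29 in the Hprt knockout and 12.49 and 12.49 in wild-type. The trap and exon 2 mutant arrays overlapped, while the Hprt knockout lay below all others. Trap minus Hprt knockout was 1.05 ± 0.06 and Hprt knockout minus wild-type was -1.16 ± 0.06. On that probe set exon 2 mutant minus wild-type was -0.10 ± 0.06 and trap minus wild-type was -0.11 ± 0.06, neither of them called. The other probe sets gave -0.09 to -0.27 for the exon 2 mutant and -0.06 to -0.25 for the trap line, and the largest exon 2 mutant difference, -0.27 ± 0.06, was called when every probe set was tested. The probe set of that difference carries the same suffix as that of S100a8. Nfkbia was also called lower in the exon 2 mutant under cyclic loess (-0.18) and with the mean of all probe sets (-0.16). In trap against wild-type, testing every probe set put Nfkbia at -0.21 and gave 3 lower inflammatory genes against 2. All 5 probe sets placed the Hprt knockout lowest, with differences from wild-type of -0.62 to -1.31, and they differed in the order of the trap line and the exon 2 mutant. With the arrays scaled by cyclic loess the median of all genes in Hprt knockout minus wild-type was 0.00, against 0.16, and Nfkbia was at -1.35.

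**Figure D1:**
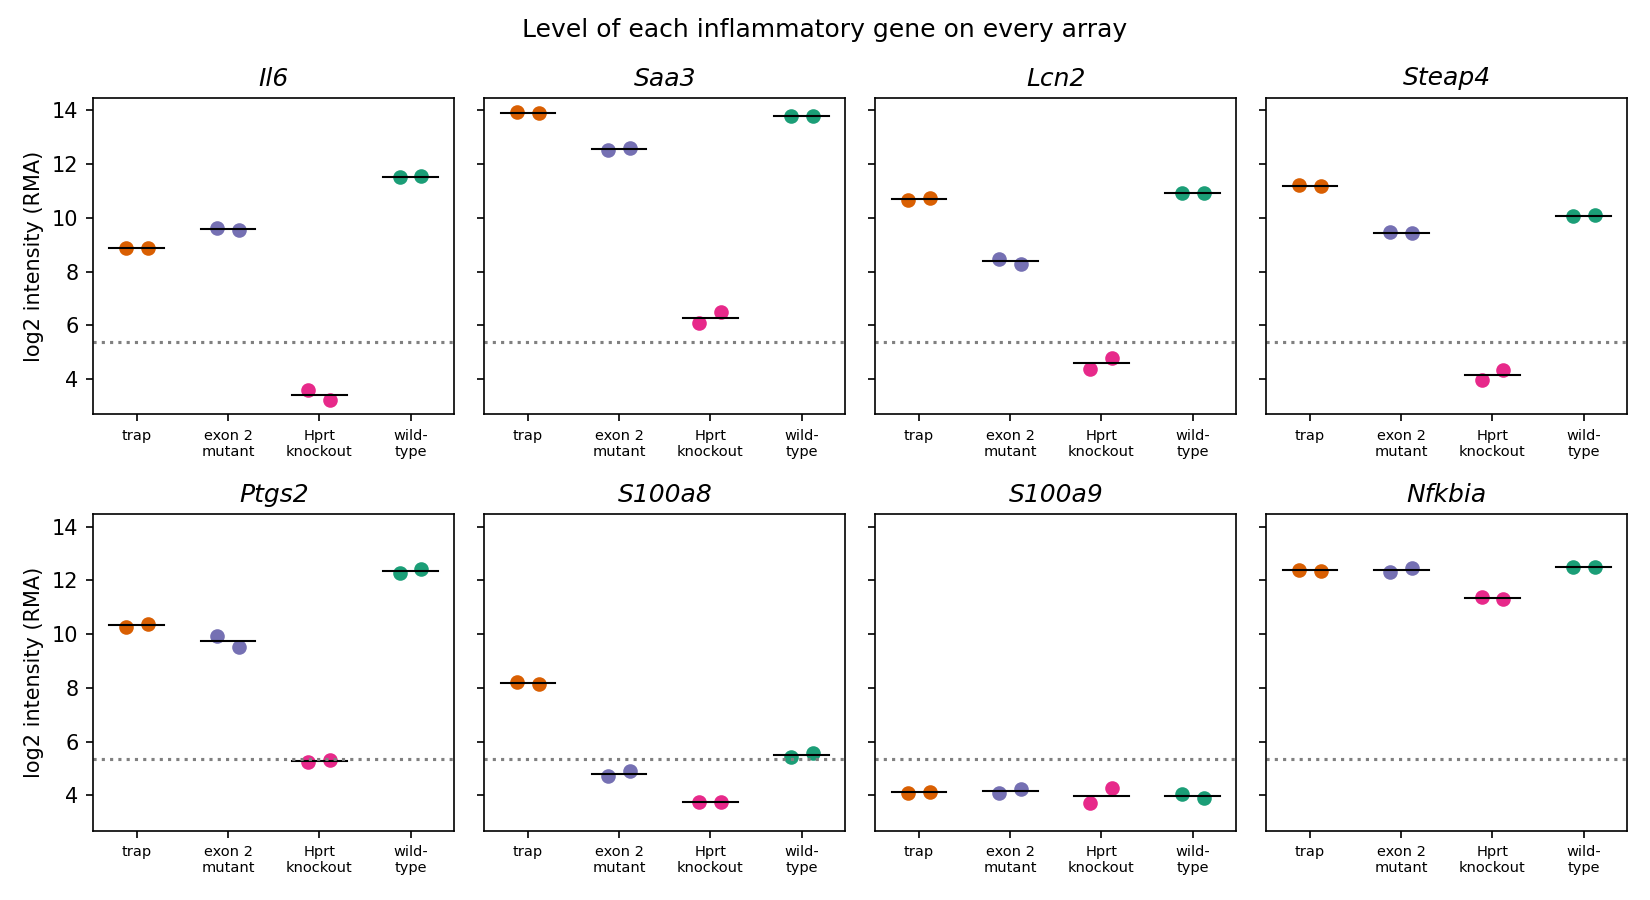
Log2 intensity (RMA) of the brightest probe set of each gene on the 2 arrays (points) of the trap line, exon 2 mutant, Hprt knockout and wild-type, with the group mean as a bar and the average low level of 5.36 as a dotted line. The Hprt knockout arrays lie below all others for 7 genes, and S100a9 lies below the dotted line throughout.

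**Figure D2:**
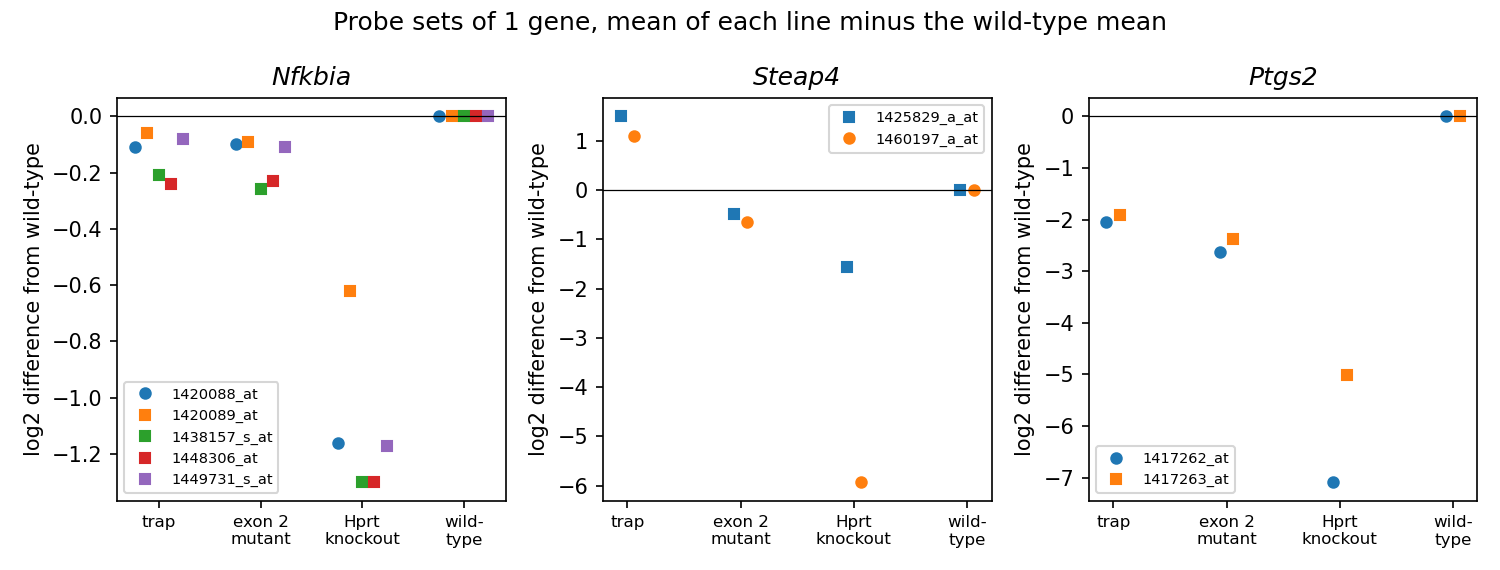
Mean log2 intensity of each line minus the wild-type mean for every probe set of Nfkbia, Steap4 and Ptgs2, with circles for the brightest probe set and squares for the others. Each probe set is lowest in the Hprt knockout, by -0.62 to -1.31 for Nfkbia, -1.56 and -5.93 for Steap4 and -5.02 and -7.08 for Ptgs2.

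Of the 8 genes, 7 passed the filter on low values, for which a gene had to be above the low level on at least 2 arrays, so a gene high in a single group could pass through that group alone. In trap against Hprt knockout all 7 were called higher by limma, where 26.6% of the 13812 tested genes were called higher. In Hprt knockout against wild-type all 7 were called lower, against a background of 25.1%. In exon 2 mutant against wild-type 6 were called lower, all but Nfkbia, against a background of 23.1%. In trap against wild-type Steap4 and S100a8 were called higher, against a background of 26.5%, and Il6 and Ptgs2 lower, against 14.6%. In trap against Hprt knockout the arrays of the 7 genes did not overlap, as for 32.5% of all tested genes in that direction. In exon 2 mutant against wild-type non-overlap in the lower direction held for 34.4% of all tested genes. Both Hprt knockout arrays lay below all other arrays for the 7 genes, and for 20.8% of all tested genes. These counts rest on the contrasts with which the list was chosen, so nothing further is read from them. The comparisons share arrays with each other and are given side by side.

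Except in trap against wild-type, the calls of feeder markers and of these genes went the same way. All 25 markers were called higher in trap against Hprt knockout, with a median of 4.01 beside 5.45 for the 7 genes and -0.13 for all tested genes. In Hprt knockout against wild-type all 25 were called lower, with a median of -4.69 beside -6.33 for the 7 genes and 0.16 for all genes. In exon 2 mutant against wild-type 23 were called lower and none higher, with a median of -0.54 beside -1.23 for the 7 genes and 0.03 for all genes. In trap against wild-type 3 were called higher and 12 lower, with a median of -0.33 beside -0.11 for the 7 genes and 0.05 for all genes. The collagen gene Col3a1 had 14.43 and 14.49 in the trap line, 14.57 and 14.56 in the exon 2 mutant, 9.60 and 9.58 in the Hprt knockout and 14.77 and 14.81 in wild-type. Col1a1, Thy1, Dcn and Prrx1 were likewise lowest in the Hprt knockout, at 6.43 to 6.53, 6.80 to 6.83, 6.36 to 6.72 and 5.92 to 5.93, and so were Lum (5.21 and 5.26) and the growth factor receptor gene Pdgfra (7.69 and 7.46). Single feeder markers ranged widely, and Lum (7.22 ± 0.05) and Dcn (6.78 ± 0.12) differed in trap minus Hprt knockout by more than Il6, Lcn2, Ptgs2 and S100a8. The part of feeder cells in the levels of the inflammatory genes was not tested, and in these bulk samples fewer cells of a type and less RNA per cell cannot be told apart.

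Leukocyte markers did not all move one way. Of 10 macrophage markers, Ptprc, which encodes the pan-leukocyte antigen CD45, Itgam, Tyrobp and Aif1 were low in all 4 groups. The lysozyme gene Lyz2 had 9.07 and 9.17 in the trap line, 8.25 and 8.10 in the exon 2 mutant, 5.74 and 5.70 in the Hprt knockout and 9.05 and 9.08 in wild-type. Adgre1, the gene of the surface marker F4/80, was likewise lowest in the Hprt knockout, at -0.60 ± 0.06 minus wild-type. The lysosomal genes Cd68 and Laptm5 were well above the low level and ran the other way, at 1.40 ± 0.10 and 1.25 ± 0.05 for Hprt knockout minus wild-type and -0.65 ± 0.10 and -0.84 ± 0.05 for trap minus Hprt knockout. Csf1r and Fcgr1 did not pass in Hprt knockout against wild-type, at -0.17 ± 0.18 and -0.08 ± 0.05. The part of these cells in the levels of the inflammatory genes was not tested. The macrophage list mean was 6.21 to 6.26 in the trap line, 6.03 to 6.10 in the exon 2 mutant, 5.97 to 6.01 in the Hprt knockout and 6.10 to 6.11 in wild-type. Of 7 mast cell markers 6 were low in every group, and the list mean lay between 4.38 and 4.53 on all arrays. Endothelial markers had list means of 5.31 to 5.33 in the trap line, 5.38 to 5.45 in the exon 2 mutant, 5.81 to 5.96 in the Hprt knockout and 5.01 to 5.18 in wild-type. Of the 7, Cdh5, Tie1 and Emcn were low in all 4 groups. Tek (1.79 ± 0.07), Pecam1 (1.34 ± 0.10), Cldn5 (1.01 ± 0.21) and Vwf (1.01 ± 0.12) were called higher in Hprt knockout against wild-type. Primitive endoderm markers had list means of 6.97 to 6.99 in the trap line, 6.38 to 6.50 in the exon 2 mutant, 6.92 to 6.95 in the Hprt knockout and 6.96 to 6.99 in wild-type. Except in exon 2 mutant against wild-type, these means hide opposite changes. In Hprt knockout against wild-type 4 of the 9 markers were called higher and 2 lower, beside 46.4% and 25.1% of all tested genes. Sox17 (0.72 ± 0.13), Foxa2 (0.53 ± 0.17), Gata4 (0.39 ± 0.08) and Gata6 (0.31 ± 0.05) were higher. Pdgfra, also on the feeder list (-1.90 ± 0.10), and Afp (-0.51 ± 0.07) were lower. In exon 2 mutant against wild-type 6 of the 9 were called lower and none higher, with a median of -0.73. Of all tested genes 23.1% were lower and 32.5% higher in that comparison. The part of primitive endoderm cells in the levels of the inflammatory genes was not tested.

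**Figure D3:**
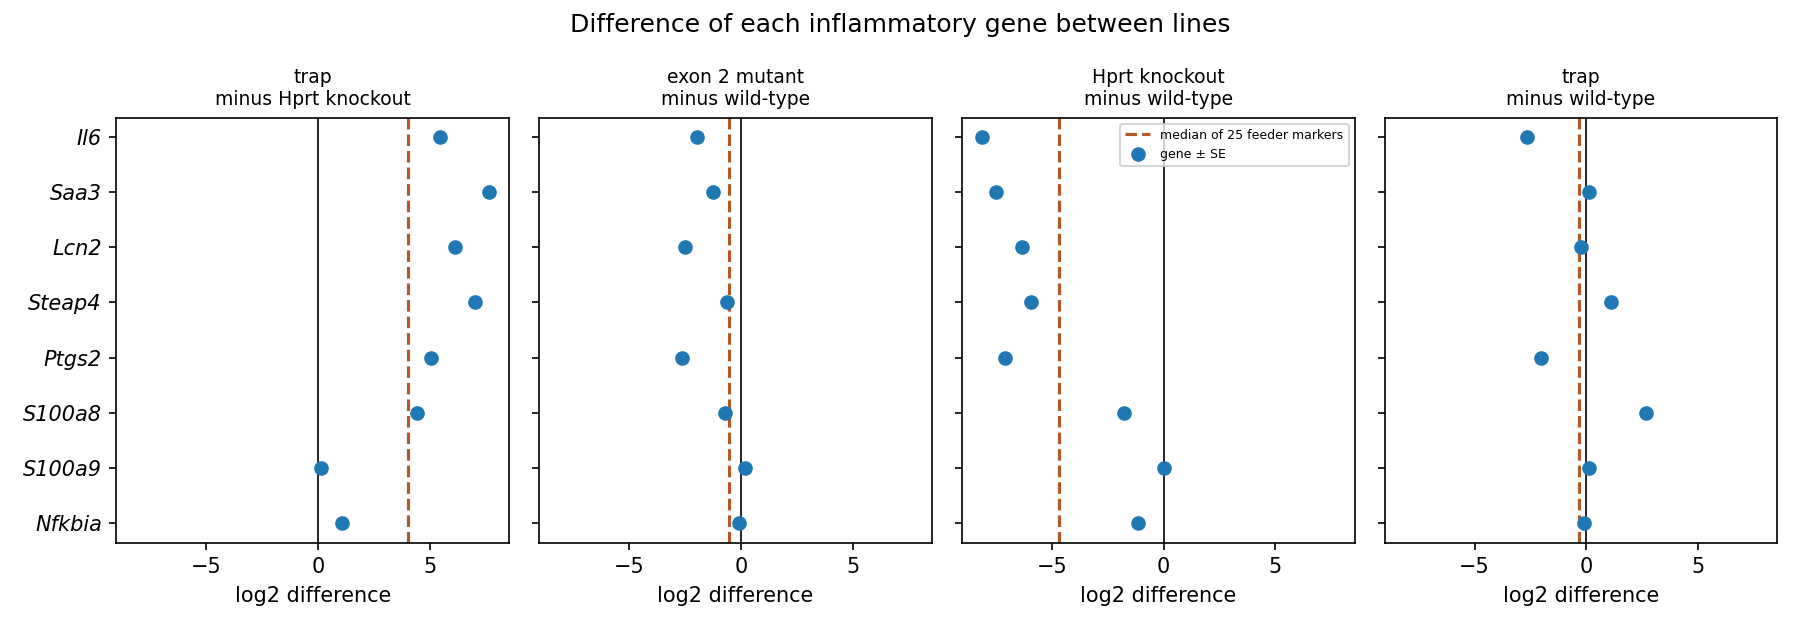
Log2 difference ± SE of the brightest probe set of each gene in 4 comparisons, the first-named line minus the second (n = 2 arrays each, error bars within the points), with the median difference of 25 feeder fibroblast markers as a dashed line. On these brightest probe sets Il6, Saa3, Lcn2, Steap4 and Ptgs2 lie beyond the feeder median in both panels with the Hprt knockout, whereas the dimmer probe set of Steap4 (3.06 and -1.56) does not, nor that of Ptgs2 (3.11) in trap minus Hprt knockout. S100a8 stands at 2.67 in trap minus wild-type beside a feeder median of -0.33.

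The other genes of these pathways were taken from 8 lists, written with earlier results of these data known. Of 145 listed symbols 130 were on the array and 105 passed the filter. In trap against Hprt knockout, which asks what accompanies the Gtf2i trap among lines labelled HPRT -/-, 71 of the 105 were higher and 10 lower by limma at an adjusted p under 0.05, with a median difference of 0.64 beside -0.13 for all genes. Of all tested genes 26.6% were higher and 41.8% lower. The 10 lower pathway genes were 2 under cyclic loess and 5 without trap replicate 2. Genes of the IL-1, TNF and Toll-like receptor pathway, ligands among them, rose in 17 of 20 cases and none fell. The alarmin gene Il33 was higher by 5.50 ± 0.08 (adjusted p = 1.19e-08), the lipopolysaccharide receptor gene Tlr4 by 3.63 ± 0.13 from a low level, and the IL-1 receptor accessory protein gene Il1rap by 3.26 ± 0.08. These counts stand beside the feeder median of 4.01.

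Among NF-kB subunits and regulators 11 of 19 rose and 3 fell in the same comparison. Nfkbiz, a nuclear IkB protein gene, was at 4.13 ± 0.07 (limma adjusted p = 1.64e-08), the deubiquitinase gene Tnfaip3 at 1.57 ± 0.24 and the inhibitor gene Nfkbie at 1.52 ± 0.09. Of 15 genes of the IL-6, gp130 and STAT3 pathway 11 rose and 1 fell. The oncostatin M receptor gene Osmr (5.88 ± 0.10, low in the Hprt knockout), the transcription factor gene Cebpd (2.88 ± 0.05) and the kinase gene Jak1 (1.93 ± 0.06) rose. Other acute phase genes rose in 4 of 7 tested cases, among them those of ceruloplasmin (Cp, 6.73 ± 0.07, low in the Hprt knockout), haptoglobin (Hp, 5.12 ± 0.08) and the protease inhibitor Serpina3n (4.19 ± 0.07), and none fell.

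Of 12 complement genes 9 rose and none fell, with the C1 protease genes C1ra at 3.88 ± 0.06, low in the Hprt knockout, and C1s1 at 2.97 ± 0.15. Serping1, the gene of the C1 inhibitor, was at 1.41 ± 0.06. Of 14 prostaglandin genes 9 rose and 3 fell. Prostaglandin E synthase (Ptges, 2.93 ± 0.06), the phospholipase gene Pla2g4a (2.33 ± 0.09) and the receptor gene Ptger2 (1.93 ± 0.11, low in the Hprt knockout) rose along with the Ptgs2 difference of 5.05. Other S100 genes rose in 6 of 7 cases, led by S100a4 (5.37 ± 0.08), S100a6 (3.01 ± 0.05) and S100a13 (2.47 ± 0.06). STEAP and iron genes were split, with 4 of 11 higher and 3 lower. Steap2 rose by 1.54 ± 0.06, the iron regulatory gene Aco1 was at -0.38 ± 0.10 and Steap3 at 0.30 ± 0.11. The calls of the last pair depended on single arrays. Without trap replicate 1 Aco1 was at -0.29 (adjusted p = 0.0648, and 0.0643 under cyclic loess) and Steap3 at 0.26 (adjusted p = 0.162). Steap3 also missed the threshold without trap replicate 2 (adjusted p = 0.0764) and without Hprt knockout replicate 1 (adjusted p = 0.209).

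In exon 2 mutant against wild-type, which asks what accompanies the exon 2 deletion, 57 of the 105 genes were lower and 8 higher, with a median of -0.24 beside 0.03 for all genes and -0.54 for the feeder markers. Of all tested genes 23.1% were lower and 32.5% higher. Of 12 complement genes 10 fell, and none rose. Clu, which encodes clusterin, was at -1.39 ± 0.05 (limma adjusted p = 7.71e-06), Serping1 at -1.28 ± 0.06 and the factor B gene Cfb at -1.13 ± 0.11. Acute phase genes fell in 4 of 7 cases and 1 rose, with Hp at -1.78 ± 0.08 (adjusted p = 1.35e-05), the lipopolysaccharide binding protein gene Lbp at -1.25 ± 0.10 and Serpina3n at -1.22 ± 0.07. NF-kB subunits and regulators fell in 11 of 19 cases and rose in 2. Tnfaip3 was at -1.29 ± 0.24, Nfkbie at -0.49 ± 0.09 and the subunit gene Rela at -0.49 ± 0.05.

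In the same comparison the IL-1, TNF and Toll-like receptor pathway had 10 falls and 1 rise among 20. Il1rn, the gene of the IL-1 receptor antagonist (-1.87 ± 0.12, adjusted p = 3.95e-05 by limma), and Il1rap (-1.19 ± 0.08) fell, while Irak3, an inhibitory kinase-like gene of the pathway, rose by 1.34 ± 0.08. The IL-6, gp130 and STAT3 pathway had 9 falls and 2 rises among 15, with Osmr at -0.62 ± 0.10, the kinase gene Tyk2 at 0.44 ± 0.06 and the LIF receptor gene Lifr at 0.43 ± 0.11. With the mean of all probe sets Tyk2 was at 0.16 (adjusted p = 0.212) and Lifr at 0.01 (adjusted p = 0.905), and Lifr also lost its call without exon 2 mutant replicate 1 (0.27, adjusted p = 0.0572) and without wild-type replicate 1 (0.37, adjusted p = 0.0861). Prostaglandin genes fell in 5 of 14 cases and none rose, with Pla2g4a at -0.91 ± 0.09, the receptor gene Ptger4 at -0.72 ± 0.10 and the transporter gene Slco2a1 at -0.57 ± 0.06. S100 genes fell in 6 of 7 cases, among them S100a16 (-0.63 ± 0.07), S100a4 (-0.50 ± 0.08) and S100a13 (-0.46 ± 0.06). Iron genes had 2 rises and 2 falls among 11, with Steap1 at -0.47 ± 0.06, Ireb2 at 0.41 ± 0.06 and the transferrin receptor gene Tfrc at 0.41 ± 0.05, which was at 0.21 (adjusted p = 0.0897) with the mean of all probe sets.

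The Hprt knockout was compared with wild-type to see what accompanies the label HPRT -/- in a line without a Gtf2i mutation by label. Of the 105 genes 64 were lower and 16 higher, with a median of -0.55 beside 0.16 for all genes and -4.69 for the feeder markers. Of all tested genes 25.1% were lower and 46.4% higher. The share of the pathway calls that were higher was 20.0%, and 9.09% under cyclic loess, where 7 genes were higher in place of 16. The pathway of IL-1, TNF and Toll-like receptors fell in 15 of 20 cases and rose in 1, with Il33 at -4.70 ± 0.08 (limma adjusted p = 1.57e-08), Il1rn at -3.38 ± 0.12 and Il1rap at -3.14 ± 0.08. The NF-kB list fell in 9 of 19 cases and rose in 2, led by Nfkbiz (-4.26 ± 0.07), Tnfaip3 (-2.91 ± 0.24) and Nfkbie (-1.89 ± 0.09). The IL-6 list fell in 10 of 15 cases and rose in 2, with Osmr at -6.48 ± 0.10 to a low level, Cebpd at -2.33 ± 0.05 and Il6st, the gp130 gene, at -1.82 ± 0.06. Acute phase genes fell in 5 of 7 cases, with Cp at -5.86 ± 0.07 to a low level, Hp at -5.01 ± 0.08 and Serpina3n at -3.61 ± 0.07.

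In that comparison 8 of 12 complement genes fell and 1 rose. C1ra (-3.95 ± 0.06) and Cfb (-1.95 ± 0.11) fell to a low level, and C1s1 was at -3.01 ± 0.15. Of 14 prostaglandin genes 8 fell and 3 rose, with Pla2g4a at -2.72 ± 0.09, Ptges at -1.93 ± 0.06 and the prostaglandin-degrading dehydrogenase gene Hpgd at -1.71 ± 0.24 to a low level. S100 genes fell in 6 of 7 cases, with S100a4 at -4.57 ± 0.08, S100a6 at -2.86 ± 0.05 and S100a16 at -2.50 ± 0.07. Of 11 iron genes 7 were higher and 3 lower, beside 46.4% and 25.1% of all tested genes. The median of the list, 0.21, lay near the 0.16 of all tested genes. The iron exporter gene Slc40a1 (0.65 ± 0.09) and the haem oxygenase gene Hmox1 (0.44 ± 0.05) rose and Steap2 fell (-1.05 ± 0.06).

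The trap line and wild-type, with a feeder marker median of -0.33, differed in both directions. Of the 105 genes 30 were higher, 18 lower and 57 did not pass, with a median of 0.02 beside 0.05 for all genes. Of all tested genes 26.5% were higher and 14.6% lower, so these counts were near the background. The 18 lower genes were 9 without wild-type replicate 2 and 11 without trap replicate 1. Il1rn, at -1.98 ± 0.12 (limma adjusted p = 5.29e-05), and Tnfaip3, at -1.34 ± 0.24 (adjusted p = 0.00415), were lower, as were Il6 and Ptgs2 by description. Irak3 (1.00 ± 0.08), Il33 (0.80 ± 0.08), Ptger2 (1.41 ± 0.11, low in wild-type) and Ptges (1.00 ± 0.06) rose. Cp (0.87 ± 0.07), Serpina3n (0.58 ± 0.07), Cd55, a complement regulator gene (0.86 ± 0.11), Clu (0.42 ± 0.05), Cebpd (0.55 ± 0.05), Pias3 (0.49 ± 0.05) and Tnip1 (0.60 ± 0.07) rose as well. S100a13 (0.83 ± 0.06) and S100a4 (0.80 ± 0.08) were the S100 genes that passed, beside the S100a8 difference of 2.67.

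Further falls in the trap line against wild-type were seen in Cfb (-0.71 ± 0.11), Osmr (-0.60 ± 0.10) and Relb (-0.51 ± 0.08). Rises in Steap2 (0.49 ± 0.06), Slc40a1 (0.49 ± 0.09) and the ferritin gene Fth1 (0.42 ± 0.05) made up part of the 6 rises among 11 iron genes. Counts of rises and falls were 6 and 3 of 20 for the IL-1 list, 3 and 5 of 19 for the NF-kB list, 4 and 3 of 15 for the IL-6 list and 2 and 2 of 7 for acute phase genes. They were 2 and 2 of 12 for complement, 5 and 3 of 14 for prostaglandin genes and 2 and 0 of 7 for S100 genes. The acute phase gene A2m (-0.36 ± 0.11) and Hpgd (-0.84 ± 0.24) passed, but not when single arrays were left out. Without wild-type replicate 2 the adjusted p of A2m was 0.201, without trap replicate 1 it was 0.0854 and without trap replicate 2 it was 0.180. Hpgd missed the threshold whichever of the 4 arrays was left out, with adjusted p of 0.0754 to 0.131.

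**Figure D4:**
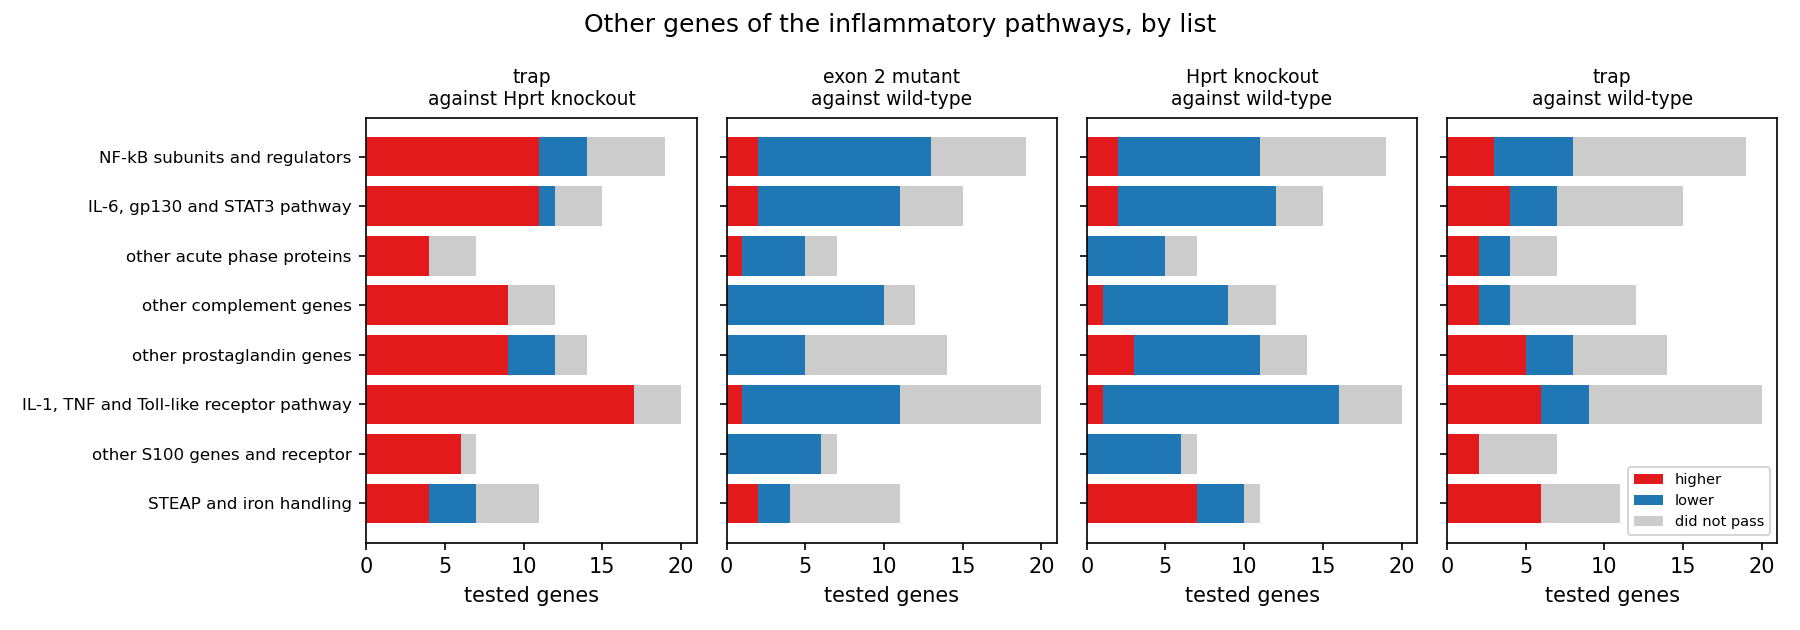
Number of tested genes per list that were higher (red), lower (blue) or did not pass (grey) at an adjusted p under 0.05 in 4 comparisons, the first-named line against the second. The IL-1, TNF and Toll-like receptor list has 17 rises of 20 in trap against Hprt knockout and 15 falls of 20 in Hprt knockout against wild-type.

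Likeness of pattern was measured as the root mean square difference between profiles over the 8 arrays, each centred on its own mean. For Saa3 the nearest genes were the chemokine gene Ccl2 (0.31), the interferon-inducible gene Ifi202b (0.35) and the angiotensin receptor gene Agtr2 (0.41). Ifi202b had 11.60 and 11.57 in the trap line, 11.01 and 11.03 in the exon 2 mutant, 4.76 and 4.53 in the Hprt knockout and 11.80 and 11.86 in wild-type. Its exon 2 mutant arrays lay below the trap line as for Saa3, but its wild-type arrays lay above the trap line, unlike Saa3. Ccl2 and Agtr2 had the same order of lines as Saa3. For Il6 they were Ogn, a small proteoglycan gene (0.37), the pentraxin gene Ptx3 (0.60) and the deconjugating protease gene Usp18 (0.64). Ogn had 8.91 and 8.78 in the trap line, 9.55 and 9.50 in the exon 2 mutant, 3.62 and 3.44 in the Hprt knockout and 10.67 and 10.78 in wild-type, the same order of lines as Il6. For Nfkbia they were Dcbld2 (0.04), BC034090 (0.06) and Trim35 (0.06). Nfkbia varied less between lines than Saa3 and Il6, so its values are not comparable with theirs. The arrays fall into 4 groups, so these values are over few distinct conditions.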

How the data were processed

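Total RNA of 8 embryonic stem cell samples was hybridised to Affymetrix mouse arrays, and the authors deposited log2 intensities of 45101 probe sets. The submitters' processing notes name RMA (version not given in the sources used here). RMA as commonly run equalizes the distributions of the arrays, which hides overall shifts, and compresses folds against dim signals. Probe sets were named through the platform annotation: leaving out 64 controls, 34945 had 1 symbol, 932 several and 9160 none. Of those with 1 symbol 34741 matched RefSeq by Entrez ID, and 0 symbols changed. Each of 18193 genes was represented by its probe set with the highest mean, and 13812 genes that exceeded the 40th percentile of at least 2 arrays were tested. The 8 arrays entered limma 3.58.1 (R 4.3.3) together, with a mean per group (lmFit, eBayes, 4 residual and 6.86 total degrees of freedom), two-sided, with Benjamini-Hochberg adjustment over all tested genes and a threshold of 0.05. An SE of a gene on a dimmer probe set, or of S100a9, comes from a fit to every probe set. Named genes were the inflammatory genes, up to 3 per pathway list and comparison with the largest passing difference and no overlap of arrays, Gtf2i, Hprt, defining feeder markers, and the 3 genes most alike in pattern. C3 was to be among the genes compared for pattern and was not analysed here. Other markers and the promoter results were added as descriptions. The members, lists and alternatives were chosen with earlier results of these data known. The fit was tested on simulated data before use. Replicate numbers do not mark a known shared culture.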

Additional observations from a re-analysis of the deposited data

Results flagged for a closer look

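The 2 lines with a Gtf2i mutation were compared as trap minus Hprt knockout and exon 2 mutant minus wild-type, each against a different reference. For 7 inflammatory genes every trap array lay above both Hprt knockout arrays while every exon 2 mutant array lay below both wild-type arrays. Of all tested genes 32.5% did not overlap upward in the first comparison and 34.4% downward in the second. The share with both was not counted, so nothing is read from the 7 genes. Nfkbia was not called in exon 2 mutant against wild-type on its brightest probe set, at -0.10 ± 0.06. The trap difference exceeded the exon 2 mutant difference by log2 7.40 for Il6, 8.87 for Saa3, 8.63 for Lcn2, 7.68 for Steap4, 7.67 for Ptgs2, 5.13 for S100a8 and 1.15 for Nfkbia. The arrays of the pathway genes below also lay on opposite sides in the 2 comparisons without overlap, and the values are the trap difference minus the exon 2 mutant difference. Among NF-kB regulators and subunits it was 4.55 for Nfkbiz, 2.86 for Tnfaip3, 2.01 for Nfkbie, 1.52 for Relb and 1.29 for Rela. In the IL-6 and gp130 list it was 6.50 for Osmr, 3.25 for Cebpd, 2.30 for Jak1, 1.64 for Il6st, 0.35 for Pias3 and -0.73 for Tyk2, with Tyk2 higher in the exon 2 mutant and lower in the trap line. Other acute phase genes gave 7.82 for Cp, 6.90 for Hp, 5.41 for Serpina3n and 2.98 for Lbp. Complement genes gave 4.75 for C1ra, 3.89 for C1s1, 2.70 for Serping1, 2.37 for Cfb, 2.24 for Clu and 0.74 for Cd55. Prostaglandin genes gave 3.24 for Pla2g4a, 2.15 for Ptger2, 1.56 for Ptger4 and 0.97 for Slco2a1. Genes of the IL-1 and Toll-like receptor list gave 4.45 for Il1rap, 4.37 for Tlr4 and 3.26 for Il1rn. Other S100 genes gave 5.87 for S100a4, 3.39 for S100a6, 3.02 for S100a16 and 2.93 for S100a13. In the iron list the values were 1.68 for Steap2, 0.66 for Steap1, 0.48 for Steap3, 0.32 for Fth1, -0.35 for Slc40a1 and -0.63 for Tfrc, the last pair with the opposite directions. Not all of these differences passed the limma test. In exon 2 mutant against wild-type Pias3 (-0.08, adjusted p = 0.197), Ptger2 (-0.22, adjusted p = 0.132), Steap2 (-0.14, adjusted p = 0.0976), Steap3 (-0.18, adjusted p = 0.204), Fth1 (-0.11, adjusted p = 0.0851) and Slc40a1 (0.19, adjusted p = 0.103) did not, nor did Slc40a1 in trap against Hprt knockout (-0.16, adjusted p = 0.147). The difference between the 2 effects was not tested for any of these genes. Some calls depended on the processing. In trap against Hprt knockout, cyclic loess put Tyk2 at -0.13 (limma adjusted p = 0.128) and Tfrc at -0.09 (adjusted p = 0.135). In exon 2 mutant against wild-type, Cd55 (limma adjusted p = 0.0540) and Il6st (adjusted p = 0.0694) missed the threshold when no filter was used. The feeder marker median was 4.01 in the trap comparison and -0.54 in the exon 2 mutant comparison, and its part in the values of this section was not tested. The Hprt knockout, the reference of the trap line, was lowest for all 7 inflammatory genes. Measured against wild-type, Il6 (-2.67) and Ptgs2 (-2.03) were lower in the trap line, as in the exon 2 mutant (-1.95 and -2.62). Steap4 (1.11) and S100a8 (2.67) were higher in the trap line and lower in the exon 2 mutant (-0.64 and -0.70). Saa3, Lcn2 and Nfkbia were not called in trap against wild-type.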

How the results depend on the processing

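Every total of genes past the threshold, both directions together, stayed within 1.5 times its value under the alternatives tried, which were cyclic loess, other filters, other choices of probe set, fits to the 4 compared arrays or with trend and robust moderation, the replicate block and leaving out each array, where a lone array is assumed to vary like the other groups. Counts in a single direction moved more. Lower pathway genes in trap against Hprt knockout were 2 under cyclic loess and 5 without trap replicate 2, against 10, and in trap against wild-type 9 without wild-type replicate 2 and 11 without trap replicate 1, against 18. Higher pathway genes were 7 under cyclic loess against 16 in Hprt knockout against wild-type, and 5 with the mean of all probe sets against 8 in exon 2 mutant against wild-type. Under cyclic loess the median of all genes was 0.01 against -0.13 for trap minus Hprt knockout and 0.00 against 0.16 for Hprt knockout minus wild-type. The share of calls that were higher was 52.5% against 38.9% (trap against Hprt knockout), 47.7% against 58.4% (exon 2 mutant against wild-type), 49.9% against 64.9% (Hprt knockout against wild-type) and 54.1% against 64.5% (trap against wild-type), and 9.09% against 20.0% among the pathway genes in Hprt knockout against wild-type. Tnip1 in Hprt knockout against wild-type turned to -0.07 under cyclic loess, against 0.19, and the cause was not tested. Leaving out single arrays gave 69 to 73 pathway genes past the threshold in trap against Hprt knockout, 48 to 54 in exon 2 mutant against wild-type, 77 to 81 in Hprt knockout against wild-type and 36 to 41 in trap against wild-type, and 7, 6, 7 and 4 inflammatory genes. Cyclic loess, the mean of all probe sets and testing every probe set each raised the count of inflammatory genes past the threshold in exon 2 mutant against wild-type to 7, against 6, by adding Nfkbia, and testing every probe set or only the 4 compared arrays raised that in trap against wild-type to 5, against 4. Of the single-gene values of named pathway genes 75 lost and 29 gained a call among the alternatives. With the replicate block 77, 59, 78 and 44 pathway genes passed, in the same order of comparisons, against 81, 65, 80 and 48, and the block changed no count of inflammatory genes. Between groups, the deviations of same-numbered arrays from their group means correlated at -0.28 to 0.18. These values cannot settle whether same-numbered samples shared a culture or batch, which the labels do not state. Without both Hprt knockout arrays in the fit, an alternative chosen after seeing the data, 65 pathway genes passed in exon 2 mutant against wild-type and 48 in trap against wild-type. Signals near the array background limit folds against the Hprt knockout, where Il6, Lcn2, Steap4, Ptgs2 and S100a8 were low.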
